A study of Mus musculus with 312 samples.

Results

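The genes described here are 8 members of the S100 family of small calcium-binding proteins (S100a1, S100a4, S100a6, S100a10, S100a11, S100a13, S100a14 and S100a16) and the cysteine-rich LIM proteins Crip1 and Crip2, 10 of the 25136 genes used. They were taken by the symbol of their Entrez gene ID, and they were chosen by their mean CPM and detection in these groups, so every level and ratio of the 10 genes is a description. RNA was sequenced from single cells labelled as basal, the outer layer of mammary ducts, in FVB/NJ mice with no treatment. Cells were captured on the Fluidigm C1, which isolates cells in separate chambers, and were retained with at least 50000 assigned reads and 1000 genes. The labels form 3 groups: adult cells with the mark (2) in the title (marked adult, 81 of 112 cells retained), adult cells without it (unmarked adult, 58 of 125) and cells of pregnancy (71 of 75). The labels give age only as adult or pregnancy, name no transgene and do not explain the mark.

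Each sample is 1 cell and no label names an animal, so a group counts as 1 sample and its differences from others have no replicate check. For pregnancy, the stage cannot be told apart from the capture run. The study names pregnancy cells on this instrument only as total epithelium and the labels say basal, and whether the cells here are among those it names is not given in the sources used here. Adult basal cells were gated in the study as high in CD29 and positive for CD24 after cells with markers of blood, immune and endothelial lineages were removed. At least 6 of 11 core basal genes, among them keratins and contractile genes, were at 100 CPM (counts scaled to 1000000 assigned reads) or more in 76 of 81 marked, 51 of 58 unmarked and 70 of 71 pregnancy cells. The median number of assigned reads was 174910, 101320 and 230645 in the same order, and the median number of genes at an equal depth of 50000 reads was 2312, 2193 and 3211. The median mitochondrial share of reads was 9.65%, 15.6% and 18.4%. The part of these differences in the levels below was not tested.

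S100 proteins are dimers in which each chain carries a pair of calcium-binding loops called EF-hands. Calcium binding opens a surface that holds target proteins, among them annexins, which bind membranes, and non-muscle myosin. In the mammary basal layer, whose cells contract to eject milk, calcium is the signal for contraction. Crip1 and Crip2 are small zinc-binding proteins built of LIM domains, which hold other proteins together, and Crip2 is known from smooth muscle and vessels.

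The S100 genes of the group all lie on mouse chromosome 3 of the genome build GRCm38. S100a1, S100a13, S100a14, S100a16, S100a4 and S100a6 lie between chr3:90511034-90614414, and S100a11 and S100a10 lie between chr3:93520496-93564645. Crip2 and Crip1 are neighbours on chromosome 12, 6505 bases apart, between chr12:113140236-113153879. Gene ends of S100a1 and S100a13 overlap by 98 bases on opposite strands, and use of the strand in counting was not stated, so reads in the overlap cannot be told apart.

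The C-terminal EF-hand loop was compared between the S100 members, and the N-terminal loop was not. Each loop is given as coding DNA of the GENCODE M21 transcript on GRCm38, read 5′ to 3′ along the gene and lying within 1 exon, with the codons of loop positions 1, 3, 5 and 12, whose side chains hold calcium, in capitals.
S100a1, chr3:90511284-90511319, minus strand: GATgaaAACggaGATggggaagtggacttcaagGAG
S100a4, chr3:90605785-90605820, plus strand: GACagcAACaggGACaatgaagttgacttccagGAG
S100a6, chr3:90614233-90614268, plus strand: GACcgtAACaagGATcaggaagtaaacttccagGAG
S100a10, chr3:93564288-93564323, plus strand: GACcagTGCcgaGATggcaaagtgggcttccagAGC
S100a11, chr3:93526037-93526072, plus strand: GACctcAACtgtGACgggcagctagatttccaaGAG
S100a13, chr3:90524389-90524424, plus strand: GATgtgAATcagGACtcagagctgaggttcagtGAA
S100a14, chr3:90528114-90528149, plus strand: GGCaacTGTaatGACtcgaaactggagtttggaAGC
S100a16, chr3:90542410-90542445, plus strand: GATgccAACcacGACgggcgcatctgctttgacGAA

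In 6 of 8 loops all 4 marked codons encode an acidic residue or its amide, and the last encodes glutamate. The loops of S100a10 and S100a14 end in a serine codon, with 2 and 1 of the 4 marked codons encoding such a residue. S100a10, which is known to hold an open form without calcium, had the highest median level per length in pregnancy cells, and S100a14 was near 0 in all groups. Pairwise protein identity over the 28 S100 pairs ranged from 16.9% to 44.6%, with a median of 24.6%, and was 25.5% between Crip1 and Crip2. Identity was taken over all columns of a global alignment, gaps included, so unequal lengths lower it. Crip1, with 77 residues, and Crip2, with 208, had 53 identical residues over 208 columns. The lowest S100 pair, S100a13 with 160 residues and S100a16 with 124, had 32 over 189 columns. Each protein comes from 1 transcript per gene, and other transcripts were not aligned, so identity depends on this choice. For S100a13 the transcript was S100a13-201, with the loop above at codons 126 to 137. No 50-base stretch of a member's transcript was shared with another member. S100a4 shared 56.3% of its 50-base stretches with the gene model Gm42674, and S100a11 shared 41.1% with Gm12854, Gm29240 and Gm7665, so counts of these genes are uncertain where reads could be split or lost.

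The 10 genes together took a smaller share of the reads in pregnancy cells. They held 0.383% of assigned reads in marked adult cells, 0.359% in unmarked adult cells and 0.181% in pregnancy cells. Per cell, their summed level ran from 108 to 12955 CPM with a median of 3068 in marked cells, from 161 to 19384 CPM with a median of 3273 in unmarked cells, and from 168 to 5810 CPM with a median of 1564 in pregnancy cells. The ranges overlapped, and the 95% interval of the pregnancy median from binomial ranks, 1188 to 1993 CPM, lay below those of both adult sets, 2632 to 3702 and 2099 to 3631 CPM. After thinning to 50000 reads, the median number of the 10 genes with a read was 6, 5 and 5 per cell. Intervals of medians and of shares of cells treat each cell of a group as an independent draw, so they reflect spread between cells. Intervals of shares of reads, given for cells left out, cover the counting of reads. Neither kind covers differences between animals or capture runs, so a gap between intervals of groups is a description.

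Between genes, levels were compared as RPKM, which is CPM per kilobase of exon. In marked adult cells S100a6 and S100a10 had the highest medians, 1291 and 1172 RPKM, with overlapping intervals. S100a11, S100a1 and Crip2 followed at 271, 267 and 226 RPKM, and neighbours in this order also had overlapping intervals. The gap between S100a10 and S100a11 was larger than the intervals. In unmarked cells S100a10, S100a6 and S100a11 led with 1138, 771 and 318 RPKM, neighbours again overlapping, and the next gene, Crip2 at 104 RPKM, lay below the interval of S100a11. In pregnancy cells S100a10 stood alone at 707 RPKM (interval 481 to 888) above S100a6 at 150 RPKM (interval 47.5 to 297). From S100a6 down to S100a13 at 9.26 RPKM, neighbours in the pregnancy order did not differ beyond their intervals. The median was 0 in every group for S100a4, S100a14 and Crip1.

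**Figure D1:**
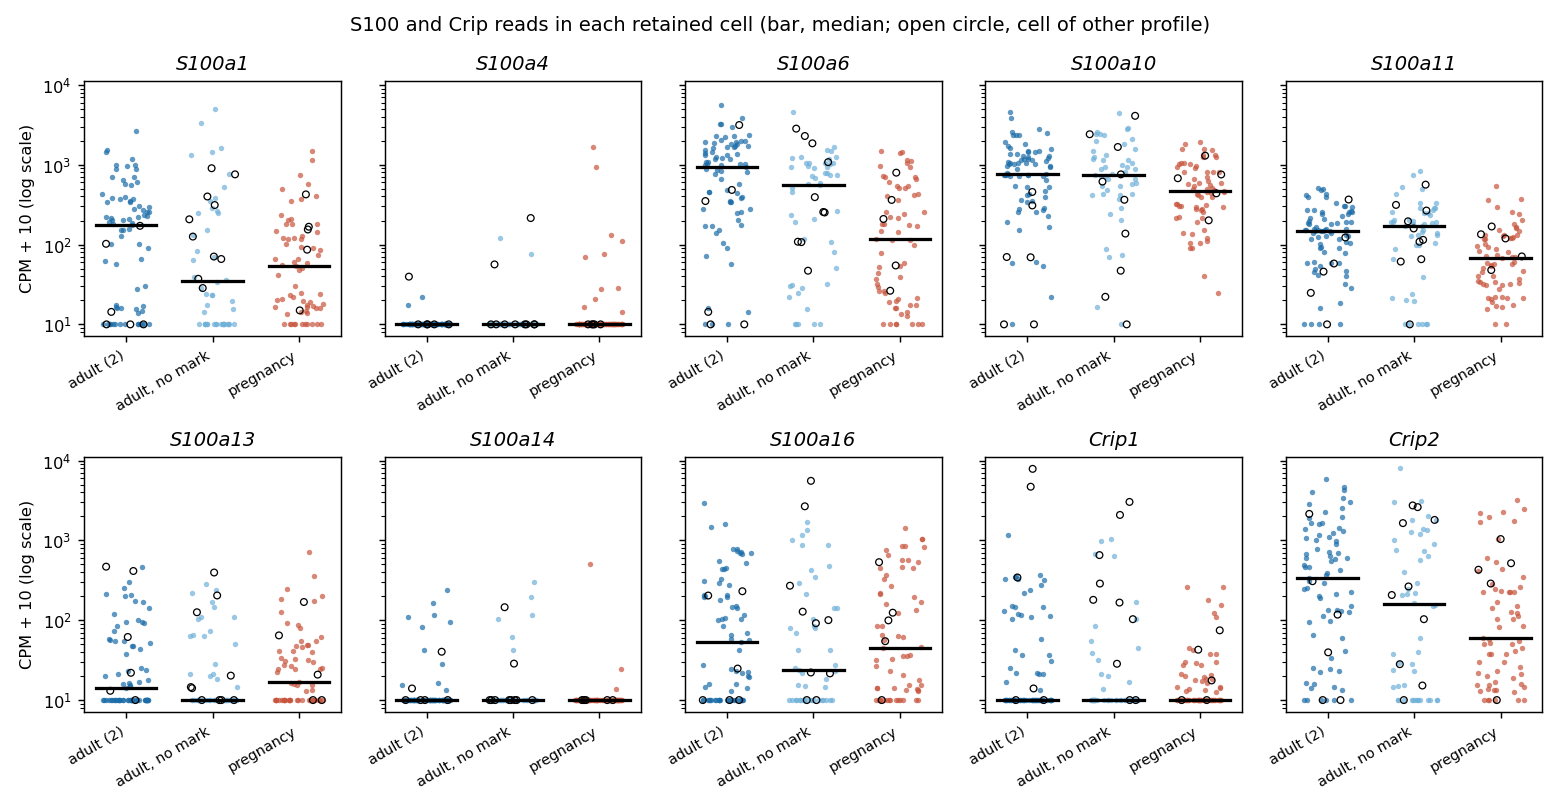
Level of each of the 10 genes in every retained cell, as CPM + 10 on a log scale, in marked adult, unmarked adult and pregnancy cells. Points are cells, bars are medians and open circles are cells without a basal profile. S100a6 has medians of 928 and 554 CPM in the adult sets and 108 CPM in pregnancy, while Crip1 has a median of 0 throughout and its highest points are open circles in adult cells.

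S100a6, S100a1, Crip1 and Crip2 had mean levels below those of both adult sets by more than 2-fold in pregnancy cells, 4 of 10 genes, and S100a4 was above both by more than 2-fold. Ratios are the log2 of the quotient of the group means in CPM, pregnancy divided by adult, after 10 CPM was added to each. Among 6496 genes whose level averaged 20 CPM or more over the groups, 5.6% were lower and 7.59% higher by more than 2-fold against each adult set. Against all adult cells the same 4 genes were lower and S100a4 higher, beside 14.4% and 12.3% of all genes. The median ratio of the 10 genes was -0.82, and that of the 6496 genes was -0.03. Between unmarked and marked adult cells 0 of 10 genes differed by more than 2-fold in either direction, beside 16.2% of all genes lower and 16.2% higher. S100a4 and S100a14 lay under the 20 CPM limit, and the other 8 genes passed it.

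**Figure D2:**
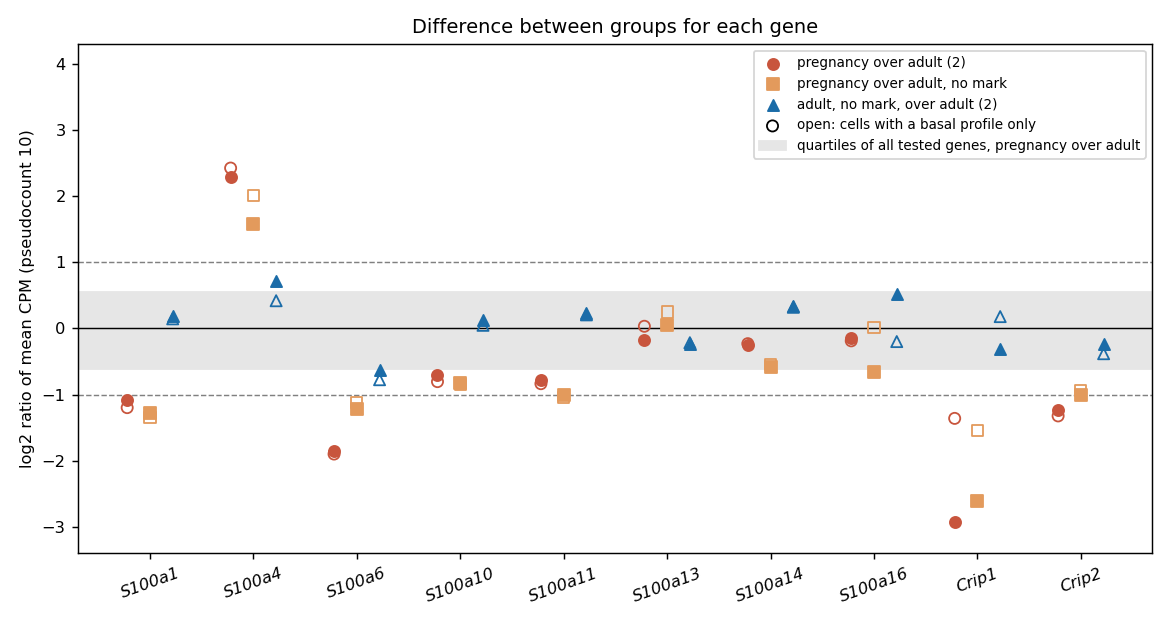
Log2 ratio of mean CPM, with a pseudocount of 10 CPM, for each of the 10 genes: pregnancy over marked adult, pregnancy over unmarked adult, and unmarked over marked adult. Filled symbols use all retained cells and open symbols the cells with a basal profile. The band runs from the lower to the upper quartile of the 6496 genes for pregnancy over all adult cells, and dashed lines mark 2-fold. S100a6, S100a1 and Crip1 lie below the lower line in both comparisons with adult cells, filled and open, while the open symbols of Crip1 lie nearer to 0.

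S100a6, also called calcyclin, binds annexins and the ubiquitin ligase adaptor Cacybp. Its level ran from 0 to 5618 CPM with a median of 928 in marked adult cells, from 0 to 4535 CPM with a median of 554 in unmarked cells, and from 0 to 1475 CPM with a median of 108 in pregnancy cells. The ranges overlapped at the low end, and the lower quartile of marked cells was 265 CPM beside an upper quartile of 459 CPM in pregnancy cells. The interval of the pregnancy median, 34.1 to 213 CPM, lay below those of the marked cells, 473 to 1181 CPM, and of the unmarked cells, 223 to 783 CPM. S100a6 was at 100 CPM or more in 85.2% of marked cells (69 of 81, Clopper-Pearson interval 75.6 to 92.1%), 69.0% of unmarked cells (40 of 58, 55.5 to 80.5%) and 53.5% of pregnancy cells (38 of 71, 41.3 to 65.5%). The log2 ratio was -1.86 against marked and -1.22 against unmarked cells. No single cell carried the S100a6 level, since the highest cell held 6.38%, 11.2% and 7.11% of the summed CPM of its group. S100a6 was also lower in unmarked than in marked adult cells, at a log2 ratio of -0.64.

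The 100 bases upstream of the RefSeq start are given for S100a6 (chr3:90612794-90612893), Crip1 (chr12:113151912-113152011) and the first start of Crip2 (chr12:113140136-113140235). All lie on the plus strand of GRCm38.p6. These genes were lower in pregnancy cells, and none of the motifs named below occurs in these stretches. The S100a6 stretch holds 12 bases of annotated exon. S100a1, which was also lower, is not printed, and its stretch holds 62 such bases.
S100a6: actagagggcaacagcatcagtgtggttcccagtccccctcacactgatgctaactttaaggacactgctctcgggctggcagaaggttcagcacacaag
Crip1: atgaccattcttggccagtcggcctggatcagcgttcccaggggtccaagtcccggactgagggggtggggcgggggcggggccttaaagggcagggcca
Crip2: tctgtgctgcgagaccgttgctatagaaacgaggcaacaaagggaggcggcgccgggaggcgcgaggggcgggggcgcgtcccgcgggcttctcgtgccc

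Promoter windows of 250 bases before the start, from RefSeq, were held for 8 of the 10 genes and were searched on both strands for the motif TGANTCA of AP-1 factors, the promoter element TATAAA and the motif GGAATG of TEAD factors. The first occurred in S100a11 and S100a16, and in 6.75% of 32851 windows. The second occurred in S100a4, and in 12.4% of windows. The last occurred in none of the 8 genes, and in 12.6% of windows. A match is a description of these letters in this window. The windows of S100a11 (chr3:93520396-93520495) and S100a4 (chr3:90603670-90603769), both on the plus strand of GRCm38.p6, are given over their last 100 bases with the motif in capitals, and a further match in S100a11 lies outside them.
S100a11: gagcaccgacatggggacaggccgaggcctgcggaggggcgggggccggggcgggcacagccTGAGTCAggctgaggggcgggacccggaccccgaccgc
S100a4: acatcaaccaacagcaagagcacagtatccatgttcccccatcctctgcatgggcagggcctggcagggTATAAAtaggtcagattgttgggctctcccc

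S100a10 and S100a11 are the best-known annexin partners of the family. S100a10 joins annexin A2 in a complex under the plasma membrane. Its level ran from 0 to 4610 CPM with a median of 762 in marked cells, from 0 to 4448 CPM with a median of 740 in unmarked cells, and from 14.6 to 1917 CPM with a median of 459 in pregnancy cells. The pregnancy range lay within the adult ranges, and the interval of its median, 313 to 577 CPM, overlapped that of unmarked cells, 555 to 982 CPM, but not that of marked cells, 703 to 1028 CPM. S100a10 was read in 71 of 71 pregnancy cells and was at 100 CPM or more in 88.9%, 86.2% and 91.5% of cells, with overlapping intervals of 80.0 to 94.8%, 74.6 to 93.9% and 82.5 to 96.8%. The log2 ratio was -0.70 against marked and -0.82 against unmarked cells.

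S100a11 binds annexin A1. It ran from 0 to 502 CPM with a median of 137 in marked cells, from 0 to 820 CPM with a median of 160 in unmarked cells, and from 0 to 533 CPM with a median of 57.4 in pregnancy cells. The ranges overlapped, and the interval of the pregnancy median, 36.6 to 82.1 CPM, lay below 107 to 146 CPM in marked and 118 to 185 CPM in unmarked cells. At 100 CPM or more the share of cells was 63.0%, 65.5% and 33.8%, with intervals of 51.5 to 73.4%, 51.9 to 77.5% and 23.0 to 46.0%. The log2 ratio was -0.78 against marked and -1.01 against unmarked cells, and -0.88 against all adult cells.

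S100a1 is known for its action on calcium channels and pumps of muscle. It ran from 0 to 2629 CPM with a median of 164 in marked cells, from 0 to 4992 CPM with a median of 24.8 in unmarked cells, and from 0 to 1490 CPM with a median of 43.4 in pregnancy cells. Mean and median ordered the groups differently: the mean was 288, 330 and 130 CPM, while the median of unmarked cells lay below that of pregnancy cells. In unmarked cells, cell 171 with 4992 CPM and cell 219 with 3365 CPM raised the mean, which was 193 CPM without them. The intervals of the median overlapped between unmarked cells, 7.32 to 73.1 CPM, and pregnancy cells, 10.6 to 80.8 CPM, and that of marked cells, 79.9 to 214 CPM, also overlapped the latter. The share of cells at 100 CPM or more was 56.8%, 36.2% and 33.8%. The log2 ratio of means was -1.08 against marked and -1.28 against unmarked cells, and with the mean of log2 values in place of the mean CPM it was -0.92 and -0.17.

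**Figure D3:**
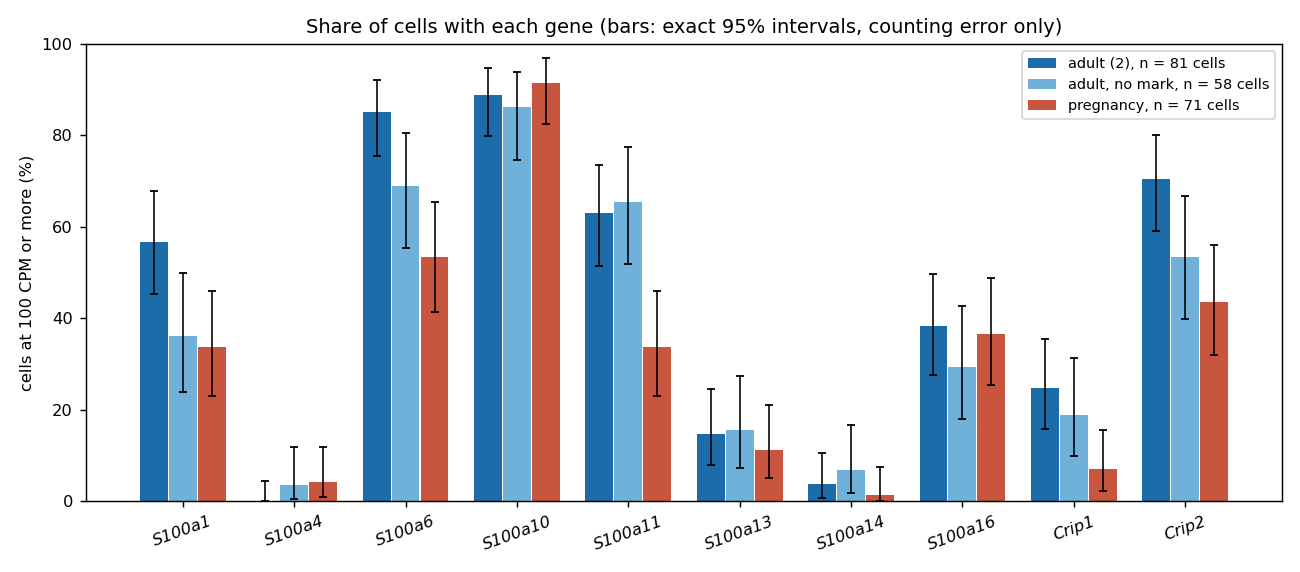
Share of retained cells at 100 CPM or more for each of the 10 genes, in marked adult, unmarked adult and pregnancy cells. Error bars are exact 95% Clopper-Pearson intervals, which treat each cell as an independent draw and do not cover differences between animals or capture runs. S100a10 is near 90% in every group, S100a11 is at 33.8% in pregnancy against 63.0% and 65.5% in adult cells, and S100a4 and S100a14 are near 0.

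S100a16 and S100a13 lay within 2-fold between stages. S100a16, a widely expressed member, ran from 0 to 2961 CPM with a median of 43.1 in marked cells, from 0 to 5565 CPM with a median of 13.6 in unmarked cells, and from 0 to 1406 CPM with a median of 35.6 in pregnancy cells. The ranges and the intervals of the medians overlapped. Its log2 ratio was -0.38 against all adult cells and -0.11 among cells with a basal profile. S100a13, which is known to help export a fibroblast growth factor, was at 100 CPM or more in 14.8%, 15.5% and 11.3% of cells. Its highest cell held 460, 386 and 699 CPM, and the log2 ratio was -0.09.

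S100a4 and S100a14 were seen in few cells. S100a4, which binds non-muscle myosin and is used as a marker of fibroblasts, had 6 reads in 3 of 81 marked cells, 56 reads in 4 of 58 unmarked cells and 787 reads in 11 of 71 pregnancy cells. Pregnancy cells 54 and 9, with 1640 and 929 CPM, were far above all others, the next being at 121 CPM. The pregnancy mean was 41.9 CPM, and 5.86 CPM when both were left out, beside 7.40 CPM in unmarked and 0.607 CPM in marked cells. Its log2 ratio of 2.29 against marked and 1.58 against unmarked cells therefore rested on 2 cells. Both lay among the 66 pregnancy cells with a basal profile. S100a14, known from epithelia, had reads in 13, 8 and 3 cells, and pregnancy cell 46 held 96.4% of the summed CPM of that group.

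Crip1 levels differed widely from cell to cell. They ran from 0 to 7870 CPM in marked cells, from 0 to 3026 CPM in unmarked cells and from 0 to 254 CPM in pregnancy cells, with a median of 0 in each. The groups overlapped from 0 upward, and among retained cells those above 254 CPM were adult. In the 4 pregnancy cells left out for low reads or genes, Crip1 held 1421 CPM of their summed reads (133 reads in 3 cells), beside 21.5 CPM of the summed reads of the retained pregnancy cells. The share of cells at 100 CPM or more was 24.7% (20 of 81, interval 15.8 to 35.5%), 19.0% (11 of 58, 9.87 to 31.4%) and 7.04% (5 of 71, 2.33 to 15.7%). A read was present in 43.2%, 39.7% and 47.9% of cells, and after thinning to equal depth in 35.8%, 34.5% and 22.5%. Pregnancy cells thus had the highest share without thinning and the lowest with it. The log2 ratio was -2.93 against marked and -2.61 against unmarked cells.

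Few adult cells carried most of the Crip1 reads. A basal profile was defined as at least 6 of 11 core basal genes at 100 CPM or more and fewer than 3 of 8 genes of each of the immune, fibroblast, endothelial, pericyte and Schwann cell lists. It was met by 75 of 81 marked, 48 of 58 unmarked and 66 of 71 pregnancy cells, and the 16 adult cells without it held 68.5% of the summed adult Crip1 level. Marked cell 104, at 7870 CPM, had 5 core basal and 3 pericyte genes, and marked cell 100, at 4698 CPM, had 4 core basal genes and none of the other lists. Unmarked cell 151, at 3026 CPM, had 8 core basal and 5 fibroblast genes. Unmarked cell 169, at 2076 CPM, had 2 core basal and 2 endothelial genes. Unmarked cell 157, at 645 CPM, had 6 fibroblast genes and no core basal gene. Among cells with a basal profile, the highest were marked cell 43 at 1165 CPM and unmarked cell 231 at 1018 CPM, both above cell 157. In cells with a basal profile the mean Crip1 level was 68.5 CPM in marked, 78.8 CPM in unmarked and 20.6 CPM in pregnancy cells, and the log2 ratio against all adult cells was -1.43.

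Markers of other cells were spread unevenly over the groups. The summed level of the 8 fibroblast genes ran from 0 to 3262 CPM in marked cells, where Lum and Dpt were at 0, from 0 to 38176 CPM in unmarked cells and from 55.2 to 5782 CPM in pregnancy cells, with medians of 0, 27.7 and 561 CPM. At least 3 of them were at 100 CPM in 0 marked, 3 unmarked and 3 pregnancy cells. The 8 pericyte genes summed to at most 7296, 255 and 859 CPM, with Cspg4 and Kcnj8 at 0 in marked cells and Kcnj8 and Higd1b at 0 in unmarked cells, and at least 3 were at 100 CPM in 2, 0 and 0 cells. The 8 endothelial genes reached 494, 6633 and 367 CPM, with at least 3 in 0, 2 and 0 cells and Tek at 0 in marked cells. The 8 immune genes reached 120705, 243 and 1384 CPM, with at least 3 in 2, 0 and 1 cells, Cd52 at 0 in unmarked and pregnancy cells and H2-Aa at 0 in unmarked cells. The Schwann cell list, which holds the family member S100b, reached 3 genes in no cell, with Foxd3 at 0 in every group. At least 3 of 7 pan-luminal genes were at 100 CPM in 17 marked, 8 unmarked and 6 pregnancy cells. The 8 luminal progenitor genes reached 30383, 4022 and 84066 CPM, with at least 3 in 0, 2 and 1 cells. The 10 mature luminal genes reached 2476, 39244 and 1708 CPM, with at least 3 in 0, 3 and 0 cells, and unmarked cell 130 had 7 pan-luminal and 0 core basal genes. The part of these markers in the levels of the 10 genes was not tested.

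The 10 unmarked cells without a basal profile held 48.3% of the summed unmarked S100a16 level, with cell 151 at 5565 CPM. For S100a6 and Crip2 the log2 ratio against all adult cells was -1.64 and -1.19 in basal profile cells, beside -1.63 and -1.15 in all cells.

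Crip2 was more widespread than its neighbour. It ran from 0 to 5915 CPM with a median of 325 in marked cells, from 0 to 7993 CPM with a median of 150 in unmarked cells, and from 0 to 3155 CPM with a median of 50.5 in pregnancy cells. The ranges overlapped, and the interval of the pregnancy median, 27.4 to 140 CPM, lay below that of marked cells, 181 to 590 CPM, but not that of unmarked cells, 18.7 to 279 CPM. The log2 ratio was -1.24 against marked and -1.01 against unmarked cells, the latter at the edge of 2-fold and at -0.94 in basal profile cells. S100a11, at -1.01 against unmarked and -0.78 against marked cells, lay just outside the count of genes lower against both sets. Crip1 and Crip2 lie next to each other and had Spearman correlations of -0.04, 0.21 and -0.05 over the cells of the 3 groups. Of cells with Crip1 at 100 CPM or more, 16 of 20 marked, 8 of 11 unmarked and 2 of 5 pregnancy cells also had Crip2, beside 67.2%, 48.9% and 43.9% of the cells without Crip1.

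Across cells the members were only loosely related. The Spearman correlation of thinned counts between the 6 most often detected members (S100a1, S100a6, S100a10, S100a11, S100a16 and Crip2; 15 pairs) had a median of 0.21 over 81 marked, 0.14 over 58 unmarked and 0.12 over 71 pregnancy cells. The highest value was 0.49, for S100a6 and S100a11 in marked cells. Cells of a group may share animals and capture runs, and these values are descriptions.

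The genes most like each of these members were taken as those with the highest smaller correlation of the adult sets among 1038 often detected genes. For S100a6 they were Anxa2 (0.45 in marked, 0.31 in unmarked and -0.08 in pregnancy cells), the myosin light chain Myl6 (0.29, 0.38 and 0.08) and the galectin Lgals1 (0.61, 0.26 and 0.20). Lgals1 was also lower in pregnancy, at a log2 ratio of -2.05, and Myl6 was at 0.02. For S100a10 they were the dynein chain Dynlrb1 (0.36 and 0.35 in the adult sets), Pdlim3 and Txnl4a, for S100a11 Atp5a1 (0.35 and 0.33), Dynlrb1 and Cox6b1, and for S100a1 Arpp19 (0.28 and 0.38), Reep3 and Ywhaq. For S100a16 they were Bex3 (0.37 and 0.41), Ssr1 and Txnl4a, and for Crip2 Atp5h (0.29 and 0.28), Psmc3 and Tor1aip2. High adult values follow from this choice of genes, in which the pregnancy values played no part. A lower correlation in pregnancy cells is therefore not read as a difference between stages.

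**Figure D4:**
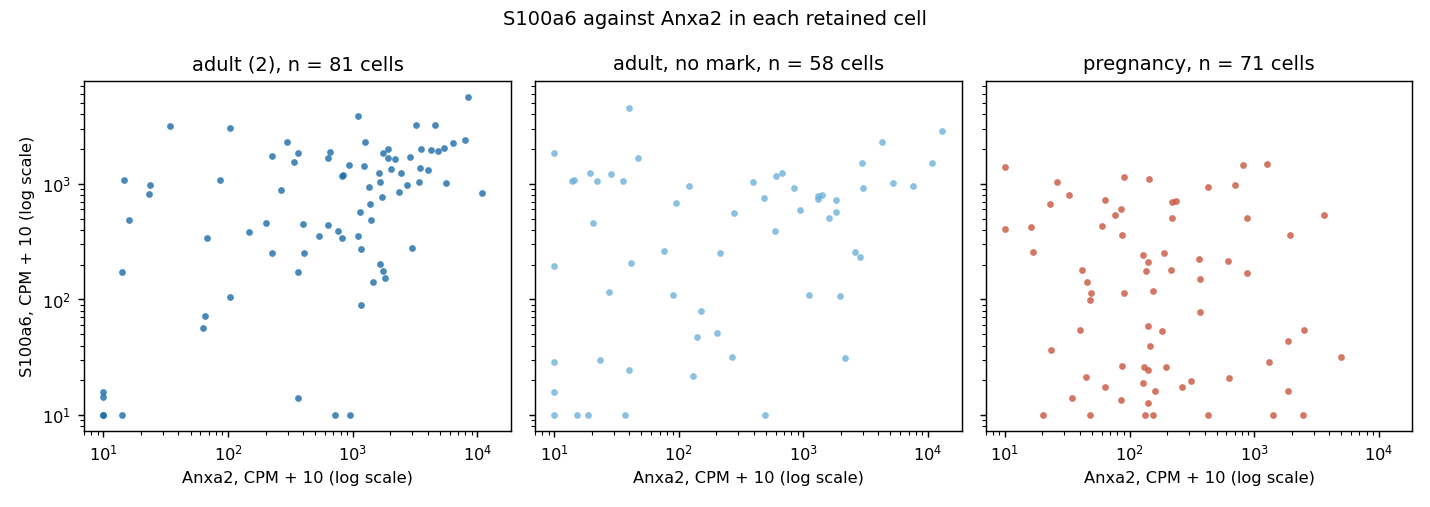
S100a6 against Anxa2 in each retained cell, both as CPM + 10 on log scales, in 81 marked adult, 58 unmarked adult and 71 pregnancy cells. Marked adult cells crowd at high levels of both genes, while pregnancy cells spread over low and high S100a6 at middle levels of Anxa2. The Spearman correlation was 0.45, 0.31 and -0.08, and Anxa2 ranked first for S100a6 by the adult values, so these are high by choice.

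Annexins, the membrane-binding partners of S100 proteins, had lower mean levels in pregnancy for 4 of 12 genes against both adult sets, and for 0 of 12 higher, beside 5.6% and 7.59% of all genes. Anxa2 ran up to 10964 CPM with a median of 1091 in marked cells, up to 13023 CPM with a median of 198 in unmarked cells and up to 4999 CPM with a median of 132 in pregnancy cells, and its log2 ratio was -1.61. Anxa1, the partner of S100a11, had medians of 124, 78.6 and 6.32 CPM and a log2 ratio of -3.04. The other genes were Anxa5 at -1.33 and Anxa7 at -1.52. Anxa7 had medians of 3.24, 0 and 0 CPM, and 1 unmarked cell at 6054 CPM held 54.1% of its summed level in that group. The Anxa7 ratio was -1.23 without the highest cell of each group and -0.80 with the mean of log2 values. The count fell to 2 (Anxa1 and Anxa5) with the mean of log2 values, where Anxa2 was at -0.37 against unmarked cells, and to 2 (Anxa1 and Anxa2) in cells with a basal profile, and it was 4 without the highest cell of each group. Of the 12 annexins, 5 lay under the 20 CPM limit, and Anxa9 and Anxa10 had no reads.

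The balance of partner and member was compared per length. The ratio of mean RPKM of S100a10 over Anxa2 was 1.22 in marked, 1.76 in unmarked and 2.58 in pregnancy cells, and that of S100a11 over Anxa1 was 0.693, 0.367 and 2.25. Pregnancy cell 33 held 38.3% and unmarked cell 120, at a mitochondrial share of 79.5% and with no basal profile, held 28.1% of the summed Anxa1 level of its group. Without the cell highest in Anxa1 in each group the ratio of S100a11 over Anxa1 was 0.743, 0.507 and 3.57. S100a6 over Anxa2 was 1.24, 1.05 and 1.15. S100a10 and Anxa2 were both at 100 CPM or more in 59 of 81 marked, 31 of 58 unmarked and 40 of 71 pregnancy cells.

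Other partners lay on both sides. Of all 34 listed partners, annexins included, 6 were lower and 3 higher against both adult sets, beside 5.6% and 7.59% of all genes, 21 passed the 20 CPM limit and the median log2 ratio of the 34 was 0.00 to 2 decimals. The other lower genes were the protease gene Plat at -2.40, whose product binds S100a10, and Trp53, which S100 proteins bind, at -1.16. Trp53 had medians of 23.6, 16.4 and 32.6 CPM, the highest in pregnancy cells, and Plat had a median of 0 in each group. With the mean of log2 values Plat and Trp53 were at -0.78 and -0.33, and without the highest cell of each group at -2.31 and -1.03. The higher genes were Atp2a2, the calcium pump regulated by S100a1, at 1.34, and Fgf1 and Tlr4 at 1.46 and 2.07. Atp2a2 had medians of 155, 116 and 421 CPM, while Fgf1 and Tlr4 had a median of 0 in each group, with single pregnancy cells at 5002 and 3684 CPM. Without the highest cell of each group Fgf1 and Tlr4 were at -0.08 and -0.08, Fgf1 was at -0.57 in cells with a basal profile, and Atp2a2 was at 1.37 without the highest cells. Cacybp was at 0.60, the membrane scaffold Ahnak at -0.36 and the myosin Myh9 at 0.02.

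The remaining S100 genes were almost silent. The 7 other S100 genes of chromosome 3 held 592 reads in all retained cells, 589 of them in S100a3, and S100a2, S100a8 and S100z had none. S100b, S100g and S100a9 each had a median of 0 in every group. Among 4 other cysteine-rich LIM genes 1 was lower against both adult sets, Csrp2 at -1.84 from few cells, 0 were higher and Csrp1 was at 0.28. Among 11 other EF-hand genes 1 was lower, Pef1 at -1.94, and 0 were higher. All genes gave 5.6% lower and 7.59% higher. With the mean of log2 values neither list had a gene past 2-fold against both adult sets. The EF-hand gene Capn2 was then at 0.93 against marked and 1.12 against unmarked cells.

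Pregnancy cells that carried proliferation genes had higher means than other pregnancy cells for every member but S100a6 and S100a13. At least 3 of 14 proliferation genes were at 100 CPM or more in 18 of 71 pregnancy cells, beside 2 marked and 4 unmarked cells. In these 18 cells the mean was 594 CPM for Crip2 and 207 CPM for S100a6, against 262 and 321 CPM in the other 53. The S100a13 means were 40.0 and 43.5 CPM, while its medians were 21.1 and 6.08 CPM. The S100a14 means were 27.2 and 0.347 CPM, the former carried by pregnancy cell 46 at 490 CPM. S100a10 had medians of 622 and 409 CPM in the same order, and S100a4 and S100a14 had medians of 0 in both. These cells share 1 group, and the differences have no replicate check.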

How the data were processed

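The authors aligned read pairs to mm10 with Subread 1.5.0 and assigned them to RefSeq genes with featureCounts, and the deposited counts are whole numbers of read pairs for each Entrez gene in each cell, without normalization or molecular identifiers. Symbols came from the RefSeq annotation of GRCm38 (25275 of 27179 IDs). IDs without a symbol, 15 mitochondrial and 124 ribosomal protein genes were left out. Cells with at least 50000 assigned reads and 1000 genes were retained. The study gives these relaxed limits for epithelial cells of pregnant mice and for adult basal cells. Its limit for other cells, 100000 and 1500, was an alternative. No doublet caller was run, and no 2 cells had identical counts. CPM was scaled to 1000000 assigned reads. Thinning drew 50000 reads per cell without replacement (seed 1). Total reads ranged from 41 to 529822 per cell.

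The members, lists and limits were chosen with earlier results of these data known. No test was made. Named besides the members were the 3 genes most like each often detected member, and listed partners past 2-fold against both adult sets, with Anxa1, Anxa2, Cacybp, Myh9, Ahnak and Csrp1. S100 relatives and cells named by number were chosen after their values were seen, as were the median and highest values given for partners. Shares carry exact Clopper-Pearson and medians binomial-rank 95% intervals. Proteins were translated from GENCODE M21 and aligned with Biopython 1.88 (BLOSUM62), and promoter windows came from RefSeq (GRCm38.p6). The loop definition with any residue at its sixth position was chosen after seeing the sequences. Computations used Python 3.11.15, numpy 2.4.6, pandas 2.3.3 and scipy 1.17.1, and ratios and correlations were tested on simulated data.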

Additional observations from a re-analysis of the deposited data

Results flagged for a closer look

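Reads of the 10 genes were also present in the cells left out by the limits on reads and genes, which entered no comparison. They took 0.475% of assigned reads in 31 marked adult cells (interval 0.455 to 0.496%), 0.352% in 67 unmarked adult cells (interval 0.339 to 0.366%) and 0.241% in 4 pregnancy cells (interval 0.211 to 0.275%). The shares in retained cells were 0.383%, 0.359% and 0.181%. The pregnancy share was the lowest in the cells left out as well, but single genes differed, among them Crip1, S100a4, S100a11 and S100a16. Crip1 took 577 CPM of the summed reads of the left-out marked cells (261 reads in 3 cells). In left-out unmarked cells it took 1532 CPM (1102 reads in 10 cells). In left-out pregnancy cells it took 1421 CPM (133 reads in 3 cells, interval 1190 to 1683 CPM). In retained cells Crip1 took 216, 161 and 21.5 CPM of the summed reads. S100a4 took 115 CPM in left-out marked cells (52 reads in 1 cell), 4.17 CPM in unmarked and 0 CPM in pregnancy cells. Its values in retained cells were 0.400, 7.97 and 48.0 CPM. S100a16 took 37.6, 26.4 and 85.5 CPM in left-out cells, the last from 8 reads, beside 220, 302 and 207 CPM in retained cells. S100a11 took 66.3, 48.7 and 53.4 CPM in left-out cells, the last from 5 reads. The design has no control samples for this signal, and the limit that 3 counts allow was 0.000663%, 0.000417% and 0.0032%.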

How the results depend on the processing

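Over 10 alternatives to the ratio of pregnancy over adult, S100a6 stayed past 2-fold in all, between -1.92 and -1.38. Crip1 ranged from -3.24 to -0.72, Crip2 from -1.33 to -0.98 and S100a1 from -1.29 to -0.61, past 2-fold in 9, 9 and 7. S100a13 changed sign in 4 and S100a16 in 1. With a pseudocount of 100 CPM, 2 members (S100a6 and Crip1) were lower and 0 higher, against all adult cells and against each set. With the mean of log2 values, which moved the median of all genes to 0.26, 2 members (S100a6 and Crip2) were lower against all adult cells and 1 (S100a6) against each set, with 0 higher. Scaling over all genes of the table or by median-of-ratios size factors moved that median to -0.16 and -0.14. With a pseudocount of 1 CPM, 1 member (S100a4) was higher in unmarked than in marked cells. The cause was not tested.

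Of all genes, 935 were lower and 801 higher against all adult cells, 364 and 493 against each set, and 1055 and 1051 between unmarked and marked cells. Fewer genes were tested with a limit of 50 CPM (3718 genes), which gave 474 and 371, 227 and 220, and 452 and 520. Without a limit (25136 genes), 1360 were higher against all adult cells, 915 higher against each set and 1723 lower in unmarked cells. Members detected in at least 50% of the cells numbered 5 in marked, 4 in unmarked and 2 in pregnancy cells at 100 CPM, and 2, 2 and 0 at 500 CPM, with 6 in pregnancy both at 10 CPM and with 1 read after thinning. For the 34 partners (6 lower and 3 higher against each set) and the 12 annexins, the same alternatives were chosen after seeing the data. A pseudocount of 100 CPM left 3 partners lower and 1 higher, and the mean of log2 values 2 and 1. Scaling over all genes, summed reads and leaving out the highest cells each left 1 higher (Tlr4, Tlr4 and Atp2a2). Of the annexins, 2 were lower with the mean of log2 values and 2 in basal profile cells. No paired analysis was possible because each cell is its own sample and the result comes from no test. Depth limits detection of genes near 10 CPM, where a cell with 100000 reads gives 1 read.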
